A study of Mus musculus with 4 samples.

Results

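Genes of DNA replication and S phase were followed in single long-term haematopoietic stem cells (LT-HSCs) from mice with leukaemia mutations. The set was a list of 48 genes, chosen by name but with earlier results of these data known. All 48 were present among the 26687 gene symbols of the count tables. They were divided by function into origin licensing and the replicative helicase (13 genes), fork synthesis and the lagging strand (10), nucleotide supply (5), chromatin and histone supply (9), repair and replication stress (7) and regulators of the step from G1 into S phase (4).

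The cells were sorted as LT-HSCs by flow cytometry from the crushed limb bones and sternum of mice 8 to 11 weeks old (C57BL/6 strain), and 1 droplet library (3′ chemistry, version 2) was made for each of 4 genotypes. The 3 mutants were NPMc+, a mutant nucleophosmin that is held in the cytoplasm, Flt3-ITD, an internal tandem duplication in the receptor tyrosine kinase Flt3, and NPMc+/Flt3-ITD, the double mutant, which carries both. The control was Mx, labelled MxCRE, a Cre transgene under the interferon-inducible Mx1 promoter. Whether the mutants also carried this Cre, how recombination was induced and how many mice were pooled per library are not given in the sources used here.

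Before a cell divides, the helicase Mcm2-7 is loaded onto origins by Cdc6 and Cdt1, and Gmnn (geminin) blocks reloading. In S phase Cdc45 and the GINS complex activate it, primase and polymerase alpha start each strand, and the sliding clamp Pcna, placed by the RFC clamp loader, holds the polymerases to DNA. Many of these genes are transcribed by E2F factors at the end of G1. Most LT-HSCs are quiescent, so these transcripts are used as a sign of cells that have entered the cycle.

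Of the 48 genes, 37 had a start-site window of 300 bases in RefSeq (GRCm38.p6; 250 bases before the annotated start and 50 after it, given 5′ to 3′ along the gene). E2F-type letters (TTTCCCGC, TTTCGCGC, TTTGCCGC or TTTGGCGC, on either strand, overlaps allowed) were found for 14 of the 37 (37.8%). The share was 40.4% (21 of 52) for a second list of replication genes and 2.94% (1 of 34) for a list of mitosis and G2/M genes. It was 2.61% for all genes with a window and 5.09% for those past the expression floor given below. The letters of the CHR element of late cell cycle genes (TTTGAA or TTCGAA) were present for 18.9% of the 37. They were present for 76.5% of the G2/M list, 21.7% of all genes and 16.7% of those past the floor. CCAAT was present for 62.2% of the 37, against 79.4%, 41.1% and 43.3% in the same order. A match is a stretch of letters, not a measured binding site.

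The windows with 2 or more E2F matches all belonged to helicase subunits, and they are shown as the windows richest in these letters within the group of genes described first. Capitals mark the matches. The windows are Mcm3 (chr1:20820263-20820562, minus strand), Mcm5 (chr8:75109259-75109558, plus), Mcm6 (chr1:128359656-128359955, minus) and 1 of the 2 windows listed for Mcm7 (chr5:138171834-138172133, minus).
Mcm3: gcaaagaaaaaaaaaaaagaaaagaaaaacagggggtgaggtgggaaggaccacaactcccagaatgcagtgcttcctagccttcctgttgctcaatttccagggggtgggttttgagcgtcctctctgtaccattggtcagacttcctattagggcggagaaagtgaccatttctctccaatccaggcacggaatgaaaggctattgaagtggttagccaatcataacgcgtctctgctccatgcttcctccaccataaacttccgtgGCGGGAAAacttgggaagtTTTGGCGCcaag
Mcm5: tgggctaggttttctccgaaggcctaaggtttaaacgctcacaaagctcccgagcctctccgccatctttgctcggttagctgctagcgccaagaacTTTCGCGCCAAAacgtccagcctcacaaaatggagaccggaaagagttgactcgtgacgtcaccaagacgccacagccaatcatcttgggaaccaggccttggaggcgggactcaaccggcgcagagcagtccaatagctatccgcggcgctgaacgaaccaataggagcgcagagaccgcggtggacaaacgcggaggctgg
Mcm6: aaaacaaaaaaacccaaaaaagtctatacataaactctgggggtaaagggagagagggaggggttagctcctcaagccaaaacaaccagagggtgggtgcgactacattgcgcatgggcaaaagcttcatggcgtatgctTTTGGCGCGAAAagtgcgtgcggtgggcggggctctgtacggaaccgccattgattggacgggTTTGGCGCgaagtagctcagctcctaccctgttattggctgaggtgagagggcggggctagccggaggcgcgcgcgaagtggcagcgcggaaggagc
Mcm7: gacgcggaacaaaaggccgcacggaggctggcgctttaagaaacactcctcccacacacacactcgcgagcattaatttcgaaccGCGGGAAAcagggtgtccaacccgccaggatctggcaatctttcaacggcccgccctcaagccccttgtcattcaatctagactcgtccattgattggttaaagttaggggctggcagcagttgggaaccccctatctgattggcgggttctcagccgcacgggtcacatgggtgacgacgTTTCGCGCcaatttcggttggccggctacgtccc
In Mcm6 a pair of overlapping matches began 110 and 106 bases before the start and the other lay 47 bases before it. The overlapping pair of Mcm5 began 153 and 149 bases before its start. Mcm7 had 1 match 165 bases before the start and 1 beginning 16 bases after it, and both matches of Mcm3 lay after its start, at 19 and 38 bases.

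After removal of barcodes with under 1000 unique molecular identifiers (UMIs, which count captured molecules), under 500 genes or over 10% mitochondrial UMIs, 2375 NPMc+, 2393 Flt3-ITD, 3321 NPMc+/Flt3-ITD and 2519 Mx cells were kept, with 20943905 to 26965367 UMIs per library. Median depth was 7323 to 9466 UMIs per cell. Over all pairs of libraries 52 barcodes were kept in both. The 10 LT-HSC markers, Procr, Hlf and Mecom among them, were detected in all libraries and summed to 824, 544 and 448 counts per 1000000 UMIs (CPM) in NPMc+, Flt3-ITD and the double mutant, against 1051 CPM in Mx. Markers of other cells and states differed between the libraries. In NPMc+/Flt3-ITD, 7 markers of multipotent or lymphoid-primed progenitors summed to 1823 CPM (452 to 767 in the others) and 10 T lineage markers to 1077 CPM (54.5 to 68.3), with Trbc1 at 330.0 CPM but Cd3e at 0.185 CPM. Mast or basophil markers summed to 111 (NPMc+), 51.0 (Flt3-ITD) and 656 (double mutant) CPM, against 19.0 CPM in Mx, and megakaryocyte markers to 1305 (NPMc+), 473 (Flt3-ITD) and 420.0 (double mutant) CPM, against 481 CPM in Mx. The sum of 14 immediate-early genes such as Fos and Jun, which tissue dissociation can induce, was 12689 (NPMc+), 20922 (Flt3-ITD) and 14211 (double mutant) CPM, against 5721 CPM in Mx, and its part in the results was not tested. Ribosomal protein genes took 28.1% (NPMc+), 27.9% (Flt3-ITD) and 19.9% (double mutant) of UMIs, against 29.98% in Mx. Male and female cells, told apart by Y-linked transcripts and Xist, were mixed in every library, but in unequal proportions. The double mutant was the most male, with 2425 male cells to 179 female cells. Flt3-ITD was nearest to balance, at 987 male to 773 female. For NPMc+ the counts were 1155 male to 495 female, and for Mx 1218 male to 583 female. Ratios over all cells thus compare libraries of different sex make-up.

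With 1 library per genotype nothing measures the spread between mice, so no p-value is given. Each ratio carries an exact 95% interval that covers counting error only. Ratios were read against a floor of a mean of 5 CPM over the 4 libraries, which 10234 genes and 47 of the 48 genes of the set passed. Ccne1, which encodes cyclin E1, was the exception, at 5.07 (NPMc+), 4.55 (Flt3-ITD) and 5.64 (double mutant) CPM, against 4.39 CPM in Mx.

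Summed over the 48 genes, replication transcripts made up 0.299% of UMIs in NPMc+, 0.357% in Flt3-ITD and 0.392% in the double mutant, against 0.299% in Mx. The ratio to Mx was 0.999 (95% interval 0.988 to 1.01) in NPMc+, 1.19 (1.18 to 1.20) in Flt3-ITD and 1.31 (1.30 to 1.32) in the double mutant. The total was thus higher than in Mx in both libraries with Flt3-ITD and level with Mx in NPMc+ alone. The double mutant was 1.31-fold above NPMc+ (1.30 to 1.32) and 1.10-fold above Flt3-ITD (1.09 to 1.11), but that order against Flt3-ITD turned round, to 0.976 with TMM scaling and 0.989 when mitochondrial and ribosomal protein genes were left out of the library total. That second scaling also brought the ratio of NPMc+/Flt3-ITD to Mx down to 1.14, and TMM scaling set NPMc+ at 1.10 and Flt3-ITD at 1.32.

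Differences of single genes were small. At least 1.5-fold higher than in Mx were 1 of 47 in NPMc+, 2 in Flt3-ITD and 7 in the double mutant, beside 4.9% (NPMc+), 5.19% (Flt3-ITD) and 12.8% (double mutant) of all genes at the floor. At least 1.5-fold lower were 5 in NPMc+ and 0 in both others, beside 12.8% (NPMc+), 10.2% (Flt3-ITD) and 12.2% (double mutant) of all genes. The 7 of 47 in the double mutant is near its background share, and without mitochondrial and ribosomal protein genes in the total it was 0 higher and 3 lower. The set had a median log2 ratio to Mx of -0.02 in NPMc+ (all genes -0.06), 0.26 in Flt3-ITD (all genes -0.10) and 0.28 in the double mutant (all genes 0.14). TMM scaling set the NPMc+ medians at 0.12 for the set and 0.08 for all genes, and the total without mitochondrial and ribosomal protein genes set those of the double mutant at 0.09 and -0.06. Against NPMc+ the double mutant had 5 genes at least 1.5-fold higher (Mcm3, Mcm4, Mcm6, Gins2 and Hells; 14.4% of all genes) and 1 lower (E2f8; 8.64%), and against Flt3-ITD 0 and 0 (14.3% and 8.76% of all genes). Above 1 relative to Mx were 20 (NPMc+), 37 (Flt3-ITD) and 36 (double mutant) of the 47 genes. Of all genes at the floor, 42.7% (NPMc+), 36.0% (Flt3-ITD) and 61.6% (double mutant) were above 1, so the NPMc+ count is near its background share. The shift was therefore a modest one over many genes, and over all cells it exceeded the shift of all genes most in Flt3-ITD. Among female cells that order turned round, with medians of 0.10 for the set and -0.07 for all genes in Flt3-ITD, and 0.46 and 0.18 in the double mutant.

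**Figure D1:**
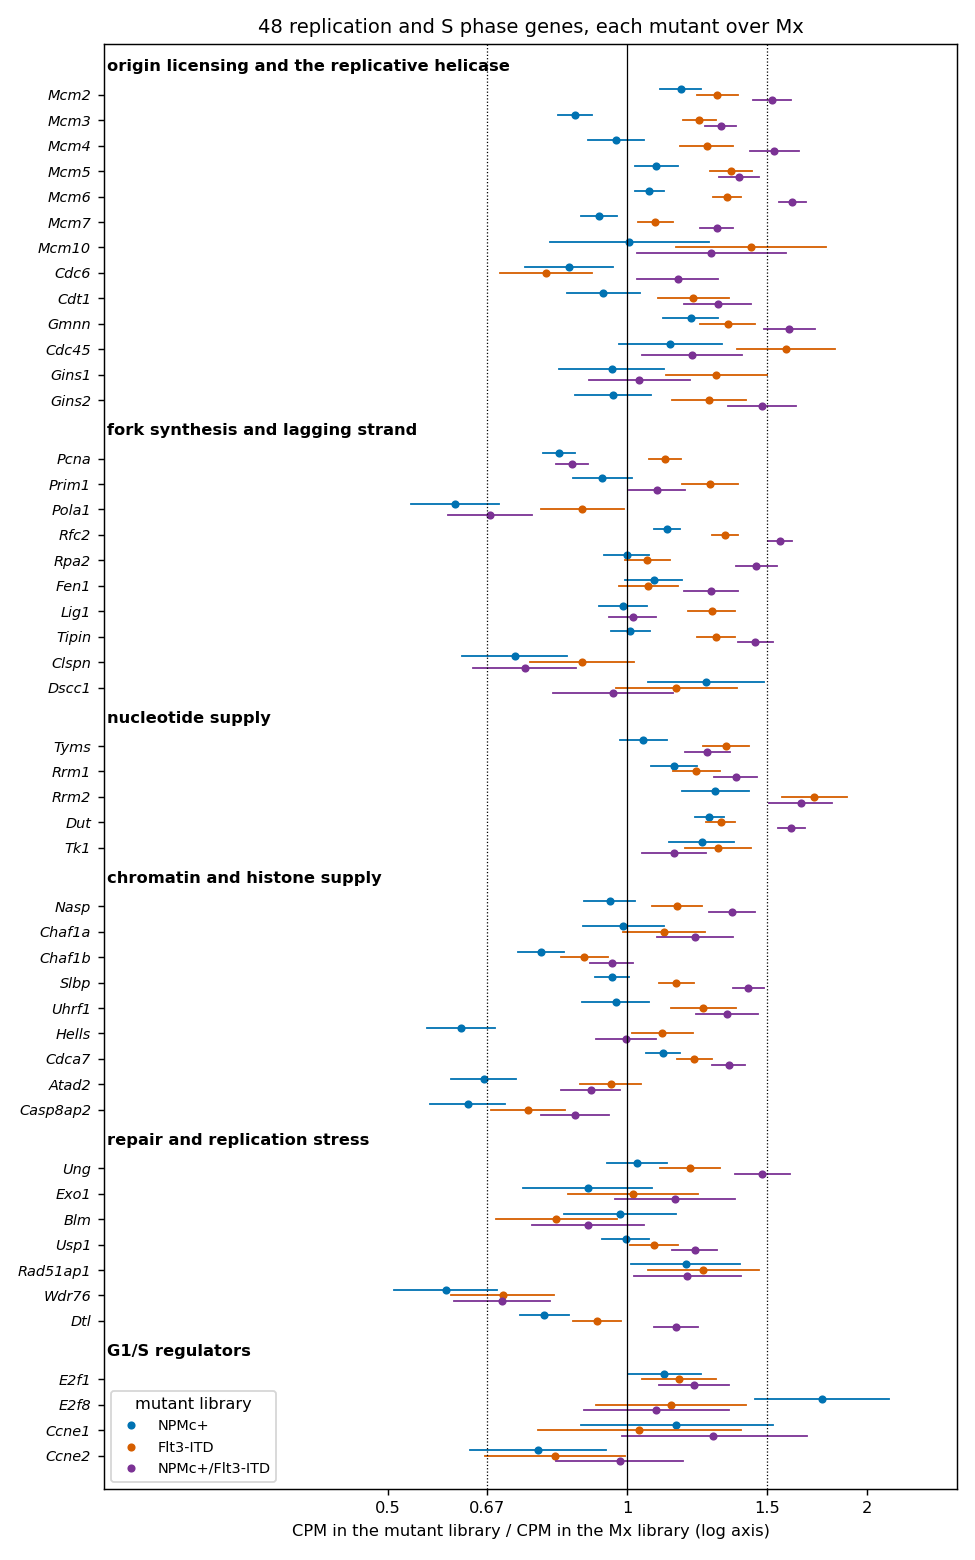
Ratio of CPM in each mutant library to CPM in the Mx library (log axis) for the 48 genes, grouped by function; points are ratios, bars are exact 95% intervals of counting error, and dotted lines mark 1.5-fold. Most Flt3-ITD and NPMc+/Flt3-ITD points of the first 3 groups lie right of 1, while NPMc+ points spread to both sides of it.

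Origin licensing and helicase genes summed higher in both Flt3-ITD libraries than in Mx. In the double mutant every gene had a ratio above 1, but the interval of Gins1 held 1 (1.04, 0.895 to 1.20). The 13 genes summed to 878 CPM in NPMc+, 1093 CPM in Flt3-ITD and 1242 CPM in the double mutant, against 871 CPM in Mx, ratios of 1.01 (NPMc+), 1.26 (Flt3-ITD) and 1.43 (double mutant). All 13 were above Mx in the double mutant and 12 of 13 in Flt3-ITD, against 6 of 13 in NPMc+. The shares of all genes above Mx were 61.6% (double mutant), 36.0% (Flt3-ITD) and 42.7% (NPMc+). Without mitochondrial and ribosomal protein genes in the total the 3 ratios were 0.980 (NPMc+), 1.22 (Flt3-ITD) and 1.25 (double mutant). That scaling left 32 of the 47 genes of the whole set above Mx in the double mutant, against 36 before it.

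Mcm6 had 201, 252 and 304 CPM in NPMc+, Flt3-ITD and the double mutant, against 188 CPM in Mx, and its ratio in the double mutant was 1.61 (1.55 to 1.68). Mcm2 stood at 107 (NPMc+), 118 (Flt3-ITD) and 139 (double mutant) CPM, against 91.3 CPM in Mx, a ratio of 1.52 (1.44 to 1.61) in the double mutant. Mcm4 was at 52.9 (NPMc+), 68.8 (Flt3-ITD) and 83.7 (double mutant) CPM, with 54.7 CPM in Mx, and the double mutant's ratio was 1.53 (1.42 to 1.65). These 3 helicase subunits were thus highest in the double mutant, with Flt3-ITD next. Mcm3 was at 124 (NPMc+), 177 (Flt3-ITD) and 188 (double mutant) CPM, against 144 CPM in Mx. Mcm7 was at 124 (NPMc+), 146 (Flt3-ITD) and 174 (double mutant) CPM, against 135 CPM in Mx. Both had the same order among the mutants, with NPMc+ below Mx. Mcm5 was 94.1 CPM in NPMc+, 117 in Flt3-ITD and 119 in the double mutant, and 86.4 CPM in Mx. All 6 subunits were thus above Mx in both Flt3-ITD libraries, whereas in NPMc+ their ratios ran from 0.860 for Mcm3 to 1.17 for Mcm2.

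The loading inhibitor Gmnn reached 60.0, 66.7 and 79.8 CPM in NPMc+, Flt3-ITD and the double mutant, against 49.9 CPM in Mx, a ratio of 1.60 (1.48 to 1.72) in the double mutant. Its target Cdt1 was at 29.7 (NPMc+), 38.6 (Flt3-ITD) and 41.4 (double mutant) CPM, against 31.8 CPM in Mx. The other loader, Cdc6, was at 19.7 (NPMc+), 18.4 (Flt3-ITD) and 27.0 (double mutant) CPM, against 23.3 CPM in Mx, the one gene of this group lower in Flt3-ITD than in Mx. Cdc45, which joins the helicase when origins fire, was at 16.9 CPM in NPMc+, 23.7 in Flt3-ITD and 18.0 in the double mutant, against 14.9 CPM in Mx, a ratio of 1.58 (1.37 to 1.83) in Flt3-ITD. The GINS subunit Gins2 was at 28.2 (NPMc+), 37.1 (Flt3-ITD) and 43.3 (double mutant) CPM, against 29.3 CPM in Mx. Cdc45 peaked in Flt3-ITD and Gins2 in the double mutant, so genes that act at the same step did not share 1 order.

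**Figure D2:**
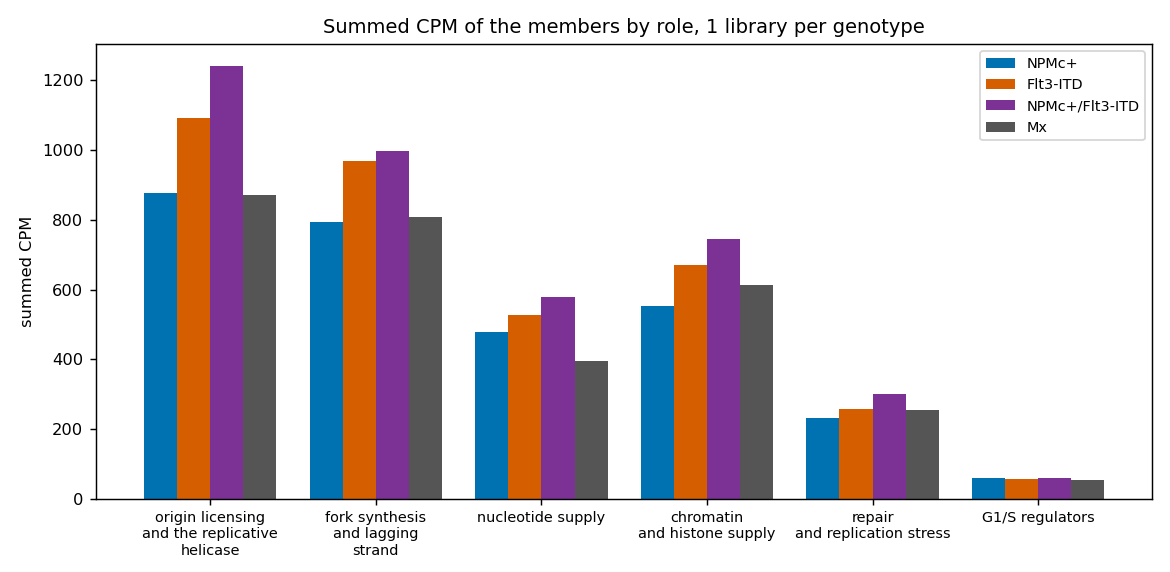
Summed CPM of the genes of each functional group in the 4 libraries (1 bar per library, no error bar because there is 1 library per genotype). Licensing genes summed to 878 (NPMc+), 1093 (Flt3-ITD) and 1242 (double mutant) CPM, against 871 CPM in Mx; the nucleotide supply bars of all 3 mutants stand above Mx.

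Genes of nucleotide supply were above Mx in all 3 mutants, NPMc+ included. The 5 genes summed to 477 CPM in NPMc+, 527 CPM in Flt3-ITD and 579 CPM in the double mutant, against 396 CPM in Mx. The ratio was 1.20 (1.17 to 1.24) for NPMc+, 1.33 (1.29 to 1.37) for Flt3-ITD and 1.46 (1.42 to 1.502) for the double mutant. All 5 were above 1 in each mutant, beside 42.7% (NPMc+), 36.0% (Flt3-ITD) and 61.6% (double mutant) of all genes. For Tyms in NPMc+ the interval held 1 (0.979 to 1.12). The lowest of the group ratios over the scalings tried was 1.17 in NPMc+.

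Rrm2, the S phase subunit of ribonucleotide reductase, had 42.4, 56.4 and 54.3 CPM in NPMc+, Flt3-ITD and the double mutant, against 32.9 CPM in Mx. Its ratio was 1.29 (1.17 to 1.42) in NPMc+, 1.72 (1.56 to 1.89) in Flt3-ITD and 1.65 (1.51 to 1.81) in the double mutant. The large subunit gene Rrm1 was at 84.0 (NPMc+), 89.5 (Flt3-ITD) and 100.3 (double mutant) CPM, against 73.3 CPM in Mx. The smaller subunit thus differed more from Mx than its partner in both Flt3-ITD libraries. Dut, whose product removes dUTP, was at 231 CPM in NPMc+, 239 in Flt3-ITD and 293 in the double mutant, against 182 CPM in Mx, a ratio of 1.61 (1.55 to 1.67) in the double mutant. Thymidylate synthase, Tyms, was at 75.5 (NPMc+), 95.8 (Flt3-ITD) and 90.9 (double mutant) CPM, against 72.1 CPM in Mx. Thymidine kinase, Tk1, had ratios of 1.24 (NPMc+), 1.30 (Flt3-ITD) and 1.15 (double mutant).

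At the fork the genes split. The 10 genes had summed ratios of 0.982 in NPMc+, 1.20 in Flt3-ITD and 1.24 in the double mutant. Without mitochondrial and ribosomal protein genes in the total these were 0.954 (NPMc+), 1.16 (Flt3-ITD) and 1.08 (double mutant). Genes above Mx numbered 4 (NPMc+), 8 (Flt3-ITD) and 6 (double mutant). Of all genes, 42.7% (NPMc+), 36.0% (Flt3-ITD) and 61.6% (double mutant) were above Mx. Rfc2, a clamp loader subunit, was at 251 (NPMc+), 296 (Flt3-ITD) and 348 (double mutant) CPM, against 224 CPM in Mx, a ratio of 1.56 (1.503 to 1.61) in the double mutant. Tipin, of the fork protection complex, was at 107 (NPMc+), 137 (Flt3-ITD) and 154 (double mutant) CPM, against 106 CPM in Mx. The clamp Pcna went the other way in the double mutant, with 137 CPM in NPMc+, 186 in Flt3-ITD and 142 in the double mutant, against 167 CPM in Mx, and its ratio was 0.821 (0.783 to 0.861) in NPMc+, 1.12 (1.07 to 1.17) in Flt3-ITD and 0.852 (0.814 to 0.892) in the double mutant. Pola1, the catalytic subunit of polymerase alpha, was at 16.8 (NPMc+), 24.2 (Flt3-ITD) and 18.5 (double mutant) CPM, against 27.6 CPM in Mx, and its ratio was 0.608 (0.535 to 0.691) in NPMc+, 0.878 in Flt3-ITD and 0.673 in the double mutant. Pcna and Pola1 were therefore lower than in Mx in both NPMc+ libraries, beside clamp loader and helicase genes that were higher in the double mutant. Reads of Pcna could be split with the processed copy Pcna-ps2, which was listed at 3.91 (NPMc+), 6.55 (Flt3-ITD) and 4.30 (double mutant) CPM, against 3.25 CPM in Mx.

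Chromatin and histone supply genes held 3 of the 5 genes at least 1.5-fold lower in NPMc+, beside 12.8% of all genes. Of the 9 genes, 8 were below Mx in NPMc+, against 3 in Flt3-ITD and 4 in the double mutant. Of all 10234 genes at the floor, 5858 (NPMc+), 6548 (Flt3-ITD) and 3933 (double mutant) were below Mx. The summed ratios were 0.898 in NPMc+ (0.991 with TMM scaling), 1.09 in Flt3-ITD and 1.21 in the double mutant. Without mitochondrial and ribosomal protein genes in the total they were 0.873 (NPMc+), 1.06 (Flt3-ITD) and 1.06 (double mutant). Hells, a remodeller that aids DNA methylation, was at 27.8, 49.7 and 44.7 CPM in NPMc+, Flt3-ITD and the double mutant, against 44.9 CPM in Mx, a ratio of 0.619 (0.560 to 0.683) in NPMc+. Atad2, a bromodomain ATPase, was at 31.5 (NPMc+), 45.5 (Flt3-ITD) and 42.9 (double mutant) CPM, against 47.7 CPM in Mx. Casp8ap2, needed for histone gene expression, was at 23.8 (NPMc+), 28.3 (Flt3-ITD) and 32.4 (double mutant) CPM, against 37.7 CPM in Mx. In NPMc+ these gave ratios of 0.661 (Atad2) and 0.630 (Casp8ap2). With TMM scaling only 1 gene of the set stayed at least 1.5-fold lower, and it was Wdr76 of the repair group, not a chromatin gene. Slbp, which binds the stem-loop of histone mRNAs, had 132 (NPMc+), 159 (Flt3-ITD) and 195 (double mutant) CPM, against 138 CPM in Mx. Uhrf1, which recruits the maintenance methyltransferase, had 36.0 (NPMc+), 46.4 (Flt3-ITD) and 49.7 (double mutant) CPM, against 37.2 CPM in Mx. Cdca7, a partner of Hells, had 146 (NPMc+), 160.0 (Flt3-ITD) and 177 (double mutant) CPM, against 132 CPM in Mx. Hells and Cdca7 lay on opposite sides of Mx in NPMc+.

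Repair genes had summed ratios of 0.909 in NPMc+ (1.004 with TMM scaling), 1.01 in Flt3-ITD and 1.18 in the double mutant. Without mitochondrial and ribosomal protein genes in the total, Flt3-ITD stood at 0.983 and the double mutant at 1.03. Ung, which removes uracil from DNA, was at 46.2 (NPMc+), 53.8 (Flt3-ITD) and 66.3 (double mutant) CPM, against 44.9 CPM in Mx. Wdr76 was at 12.2 CPM in NPMc+, 14.4 in Flt3-ITD and 14.4 in the double mutant, against 20.7 CPM in Mx, and its ratio was 0.592 (0.510 to 0.687) in NPMc+, 0.697 in Flt3-ITD and 0.696 in the double mutant. Wdr76 and Pola1 were the only genes of the set at the floor with a ratio under 0.70 in the double mutant. Among the regulators, E2f1, an activator of S phase genes, was at 33.2 (NPMc+), 34.7 (Flt3-ITD) and 36.2 (double mutant) CPM, against 29.8 CPM in Mx. E2f8, a repressor of the same targets, was at 13.2 (NPMc+), 8.55 (Flt3-ITD) and 8.20 (double mutant) CPM, against 7.54 CPM in Mx, a ratio of 1.76 (1.45 to 2.13) in NPMc+, the only gene of the set more than 1.5-fold higher there. Ccne2, which encodes cyclin E2, was at 7.98 (NPMc+), 8.37 (Flt3-ITD) and 10.1 (double mutant) CPM, against 10.3 CPM in Mx.

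The 60 other replication genes gave a smaller shift than the set in both Flt3-ITD libraries. In NPMc+ their sum lay slightly above Mx, while the median ratio of those at the floor was 0.994. Among 55 above the floor, NPMc+ had 1 at least 1.5-fold higher and 2 lower, with 1 and 1 in Flt3-ITD, and 7 and 2 in the double mutant. Of all genes, 4.9% (NPMc+), 5.19% (Flt3-ITD) and 12.8% (double mutant) were that much higher, and 12.8%, 10.2% and 12.2% lower. The 7 of 55 in the double mutant is near its background share. The summed ratios were 1.03 (NPMc+), 1.06 (Flt3-ITD) and 1.18 (double mutant). Pclaf, a Pcna-binding factor, was furthest above Mx in Flt3-ITD, with 70.1 (NPMc+), 89.8 (Flt3-ITD) and 84.5 (double mutant) CPM, against 47.1 CPM in Mx. The ribonuclease subunit Rnaseh2a stood at 65.3 (NPMc+), 67.1 (Flt3-ITD) and 104 (double mutant) CPM, against 57.2 CPM in Mx. Brca2, for recombination repair, was lowest in NPMc+, at 10.6 (NPMc+), 18.3 (Flt3-ITD) and 17.1 (double mutant) CPM, against 20.6 CPM in Mx. E2f3 was at 13.2 (NPMc+), 15.1 (Flt3-ITD) and 11.0 (double mutant) CPM, against 18.8 CPM in Mx.

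Mitosis and G2/M genes differed more than replication genes, in NPMc+ as well. NPMc+ had 22 of 38 at least 1.5-fold higher and 1 lower, with 18 and 0 in Flt3-ITD, and 15 and 0 in the double mutant. Of all genes, 4.9% (NPMc+), 5.19% (Flt3-ITD) and 12.8% (double mutant) were that much higher, and 12.8%, 10.2% and 12.2% lower. The summed ratios were 1.47 (NPMc+), 1.38 (Flt3-ITD) and 1.41 (double mutant). Without mitochondrial and ribosomal protein genes in the total they were 1.43 (NPMc+), 1.34 (Flt3-ITD) and 1.23 (double mutant). Ube2c, which feeds the anaphase-promoting complex, was at 73.0 (NPMc+), 43.6 (Flt3-ITD) and 38.1 (double mutant) CPM, against 20.1 CPM in Mx. The mitotic cyclin gene Ccnb1 was at 33.0 (NPMc+), 21.4 (Flt3-ITD) and 25.6 (double mutant) CPM, against 12.7 CPM in Mx, and the mitotic kinase gene Plk1 at 17.2 (NPMc+), 10.7 (Flt3-ITD) and 11.3 (double mutant) CPM, against 6.06 CPM in Mx. Smc4, of condensin, was at 191 (NPMc+), 135 (Flt3-ITD) and 309 (double mutant) CPM, against 120.3 CPM in Mx. Other late genes were closer to Mx. The proliferation marker Mki67 was at 31.6 (NPMc+), 32.0 (Flt3-ITD) and 23.7 (double mutant) CPM, against 28.4 CPM in Mx, and the topoisomerase gene Top2a at 77.9 (NPMc+), 81.4 (Flt3-ITD) and 78.8 (double mutant) CPM, against 77.5 CPM in Mx. NPMc+ thus combined a replication total level with Mx and higher levels of most G2/M genes. The erythroid marker sum was also highest there, at 223 CPM against 145 CPM in Mx, and the part of those cells in the G2/M level was not tested.

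To compare cells at one depth, every cell with 3000 UMIs or more was thinned at random to 3000, which kept 2250 NPMc+, 2175 Flt3-ITD, 2991 NPMc+/Flt3-ITD and 2311 Mx cells and left out 125 (NPMc+), 218 (Flt3-ITD), 330 (double mutant) and 208 (Mx). A cell then held a mean of 7.29 replication UMIs in NPMc+ (SD over cells 7.06), 9.14 in Flt3-ITD (8.33) and 9.98 in the double mutant (8.82), against 7.55 in Mx (7.85). The medians were 5 (NPMc+), 6 (Flt3-ITD) and 7 (double mutant), against 5 in Mx. Unthinned, the same cells averaged 33.1 (NPMc+), 35.5 (Flt3-ITD) and 34.7 (double mutant) replication UMIs, against 26.8 in Mx, values that depend on depth as well.

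At least 5 replication UMIs were found in 54.6% of NPMc+ cells, 63.1% of Flt3-ITD cells and 75.8% of double mutant cells, against 53.7% of Mx cells. At least 20 were found in 8.27% (7.16 to 9.48) of NPMc+ cells, 13.4% (12.02 to 14.9) of Flt3-ITD cells and 12.8% (11.6 to 14.0) of double mutant cells, against 9.91% (8.72 to 11.2) of Mx cells. The double mutant exceeded Flt3-ITD at 5 UMIs, while at 20 the intervals of these libraries overlapped. The level of 20 cuts a continuous range, with 183 (NPMc+), 273 (Flt3-ITD) and 317 (double mutant) cells and 194 Mx cells between 15 and 24 UMIs, and so names no cell type.

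**Figure D3:**
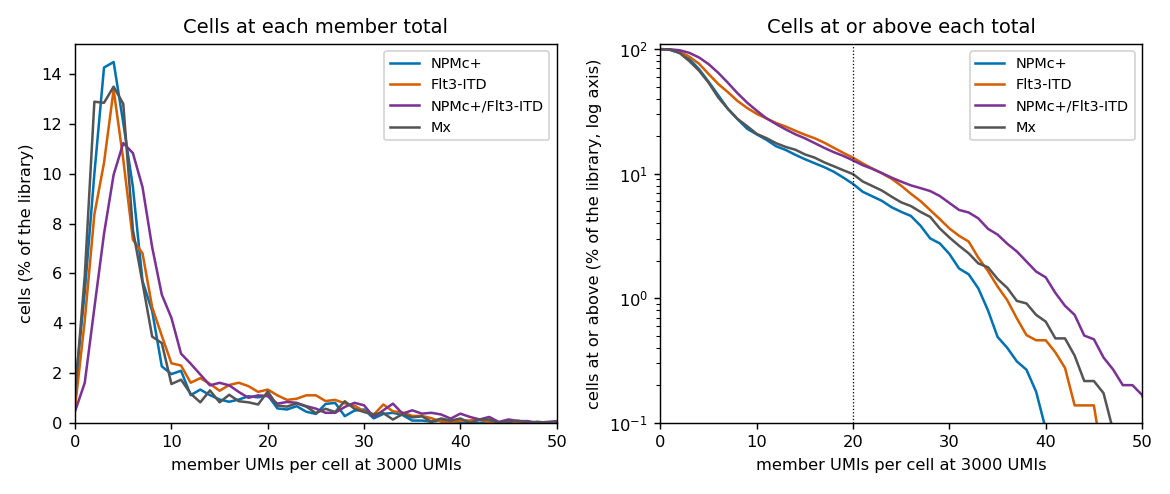
Replication UMIs per cell after thinning to 3000 UMIs, as the percentage of each library's cells at each total (left) and at or above each total (right, log axis; dotted line at 20). The NPMc+/Flt3-ITD peak lies to the right of the others, and at 20 or more the curves stand at 8.27% (NPMc+), 13.4% (Flt3-ITD), 12.8% (NPMc+/Flt3-ITD) and 9.91% (Mx).

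The cells below the level of 20 also differed. They averaged 5.56 replication UMIs in NPMc+, 6.39 in Flt3-ITD and 7.10 in the double mutant, against 5.35 in Mx, whereas cells at or above it averaged 26.5 (NPMc+), 26.8 (Flt3-ITD) and 29.6 (double mutant), against 27.5 in Mx. Cells at or above 20 held 30.1% (NPMc+), 39.4% (Flt3-ITD) and 37.9% (double mutant) of all replication UMIs, and 36.1% in Mx. The higher mean of Flt3-ITD thus came with more cells at or above 20 and a higher mean below it. Both sides were cut from the same continuous total, so the split does not show separate components. Free RNA in the droplets adds to the level of the low cells, and its part was not tested.

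Sex and other markers moved with some of these values. Among male cells, 20 or more were found in 7.80% (NPMc+), 12.3% (Flt3-ITD) and 13.2% (double mutant), against 8.32% in Mx. Among female cells the shares were 8.02% (NPMc+), 13.2% (Flt3-ITD) and 13.7% (double mutant), against 13.3% in Mx. In both sexes the double mutant stood slightly above Flt3-ITD, the reverse of the order over all cells. These differences were small, and the female shares came from 168 double mutant and 705 Flt3-ITD cells, so no order between these libraries is read from them. The gap between the sexes within Mx was wider than that between the Flt3-ITD and Mx libraries. The female share of Flt3-ITD was therefore no higher than that of Mx. In the double mutant 1351 cells had at least 3 T marker UMIs. These averaged 9.66 replication UMIs with 13.2% at 20 or more, and its cells without T, B or erythroid markers averaged 9.99 with 11.8%. Erythroid-marker cells were above the rest in each library, with 15.6% at 20 or more in NPMc+, 25% in Flt3-ITD and 30.6% in the double mutant, against 12.4% in Mx. Without all marker-bearing cells the total ratios to Mx were 0.925 (NPMc+), 1.19 (Flt3-ITD) and 1.29 (double mutant).

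Crossing the totals with those of the G2/M genes, 7.07% of NPMc+, 11.0% of Flt3-ITD and 10.8% of double mutant cells had 20 or more replication UMIs alone, against 8.78% of Mx cells. Both totals reached 20 in 1.20% (NPMc+), 2.44% (Flt3-ITD) and 2.01% (double mutant) of cells, against 1.13% of Mx cells. The G2/M total alone reached it in 5.33% (4.44 to 6.34) of NPMc+ cells, 3.26% (2.56 to 4.10) of Flt3-ITD cells and 3.88% (3.22 to 4.63) of double mutant cells, against 2.16% (1.61 to 2.84) of Mx cells. NPMc+ thus had the lowest share of cells high in replication genes alone and the highest share high in G2/M genes alone. For replication genes alone its interval (6.04 to 8.20) overlapped that of Mx (7.66 to 10.0).

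Mki67, which encodes a protein of cycling cells and is not in the set, was used to divide the cells by a gene from outside it. A Mki67 UMI was present at the thinned depth in 124 of 2250 NPMc+ cells (5.51%, 4.60 to 6.54), 128 of 2175 Flt3-ITD cells (5.89%, 4.93 to 6.96) and 122 of 2991 double mutant cells (4.08%, 3.40 to 4.85), against 87 of 2311 Mx cells (3.76%, 3.03 to 4.62). Unthinned the shares were 15.2% (NPMc+), 14.0% (Flt3-ITD) and 9.90% (double mutant), against 9.17% in Mx. In cells under 20 for both the replication and the G2/M total, the thinned share was 2.06% (NPMc+), 2.37% (Flt3-ITD) and 1.76% (double mutant), against 1.08% in Mx. Mki67 was left out of the per-cell G2/M total, so its own UMIs did not help to cut that class.

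Cells with a Mki67 UMI held a mean of 11.8 (11.2 to 12.4) replication UMIs in NPMc+, 18.3 (17.5 to 19.0) in Flt3-ITD and 17.9 (17.1 to 18.6) in the double mutant, against 17.5 (16.6 to 18.4) in Mx. Cells without one held 7.03 (NPMc+), 8.57 (Flt3-ITD) and 9.64 (double mutant), against 7.16 in Mx. The ratio of cells with to cells without was 1.68 (1.59 to 1.77) in NPMc+, 2.13 (2.04 to 2.23) in Flt3-ITD and 1.85 (1.77 to 1.94) in the double mutant, against 2.45 (2.32 to 2.58) in Mx. Replication totals were higher with Mki67 in every library. Over all cells at the thinned depth the ratio was lowest in NPMc+, but among female cells it was not, as given below.

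Set against Mx, NPMc+ cells with a Mki67 UMI had 0.674 times the replication total (0.626 to 0.724), while NPMc+ cells without one had 0.982 times (0.960 to 1.004). For Flt3-ITD the ratios were 1.04 (0.978 to 1.11) with and 1.20 (1.17 to 1.22) without, and for NPMc+/Flt3-ITD 1.02 (0.956 to 1.09) with and 1.35 (1.32 to 1.37) without. By counting error alone, the Flt3-ITD libraries thus stood above Mx in cells without a Mki67 UMI, and NPMc+ below Mx in cells with one. Cells varied far more than these intervals: with a Mki67 UMI the quartiles were 5 and 16.25 (NPMc+), 7 and 27.25 (Flt3-ITD), 7 and 27.5 (double mutant), and 5.5 and 28 (Mx). Whether the ratios with and without a Mki67 UMI differed was not tested. Cells counted as without one include cells that had one unthinned. Of the cells with a Mki67 UMI, 19.4% (12.8 to 27.4) had 20 or more replication UMIs in NPMc+, 50.8% (41.8 to 59.7) in Flt3-ITD and 41.8% (32.9 to 51.1) in the double mutant, against 43.7% (33.1 to 54.7) in Mx. G2/M genes did not share this gap: in the same cells they averaged 23.9 (NPMc+), 19.4 (Flt3-ITD) and 23.3 (double mutant) UMIs, against 20.7 in Mx.

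**Figure D4:**
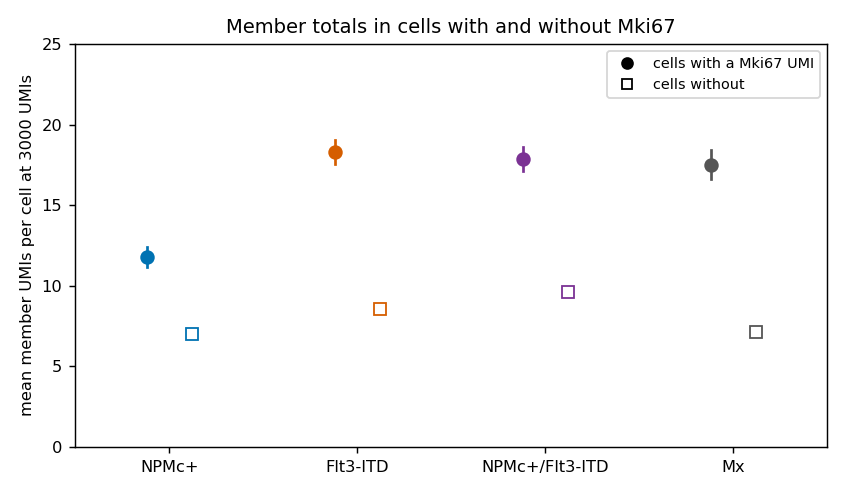
Mean replication UMIs per cell at 3000 UMIs in cells with (filled circles) and without (open squares) a Mki67 UMI; bars are exact 95% intervals of counting error, smaller than the symbol for cells without. With Mki67 the means are 11.8 (NPMc+), 18.3 (Flt3-ITD), 17.9 (NPMc+/Flt3-ITD) and 17.5 (Mx); without it they are 7.03 (NPMc+), 8.57 (Flt3-ITD), 9.64 (NPMc+/Flt3-ITD) and 7.16 (Mx).

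The ratio in NPMc+ depended on the rule for a Mki67 cell: with a UMI counted at full depth it was 2.05, and in the double mutant 2.20. Among male cells it was 1.46 in NPMc+, against 2.69 in Mx, and among female cells 1.85 in NPMc+, against 1.63 in Mx. The female values came from 474 NPMc+ and 547 Mx cells, and 5.51% (NPMc+) and 3.76% (Mx) of each whole library had a Mki67 UMI. The female ratios thus rest on few cells with Mki67, and the difference between the sexes was not tested.

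Gene by gene, 34 of 47 replication genes were at least 1.5-fold higher in cells with a Mki67 UMI in NPMc+, 42 in Flt3-ITD and 37 in the double mutant, against 45 in Mx, beside 12.2% (NPMc+), 12.4% (Flt3-ITD), 11.1% (double mutant) and 15.1% (Mx) of all genes. Rrm2 had ratios of 6.30 (NPMc+), 5.28 (Flt3-ITD) and 6.61 (double mutant), against 7.17 in Mx. Of the 6 subunits Mcm2 to Mcm7, 6 (NPMc+), 5 (Flt3-ITD) and 6 (double mutant) lay below the median ratio of the set, against 5 in Mx. The medians were 1.95 (NPMc+), 2.25 (Flt3-ITD) and 2.06 (double mutant), against 2.57 in Mx. Mcm6 had ratios of 1.22 (NPMc+), 1.52 (Flt3-ITD) and 1.37 (double mutant), against 1.72 in Mx. E2f8 had ratios of 4.21 (NPMc+), 8.61 (Flt3-ITD) and 6.66 (double mutant), against 3.65 in Mx, and E2f1 0.97 (NPMc+), 2.38 (Flt3-ITD) and 1.73 (double mutant), against 2.27 in Mx.

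How closely each gene went with the others was read from cells that had 20 or more UMIs of the other 47 genes, set against all other cells of the library. The class is cut from the set itself, so the values are a description. The median ratio over 47 genes was 4.52 in NPMc+, 4.27 in Flt3-ITD and 4.90 in the double mutant, against 5.16 in Mx. Rrm2 was at 204 CPM in the high cells and 12.2 CPM in the rest in NPMc+, 211 and 17.1 CPM in Flt3-ITD, 220.0 and 12.2 CPM in the double mutant, and 140.0 and 6.87 CPM in Mx. Its ratios of 16.6 (NPMc+), 12.3 (Flt3-ITD), 18.0 (double mutant) and 20.4 (Mx) placed it among the most sharply divided genes in all 4 libraries, with Mcm10, Tk1 and Dscc1. Near the other end Rfc2 had ratios of 2.52 (NPMc+), 2.05 (Flt3-ITD) and 1.91 (double mutant), against 2.31 in Mx, and Chaf1b, of the histone chaperone CAF-1, 2.33 (NPMc+), 1.98 (Flt3-ITD) and 1.99 (double mutant), against 1.74 in Mx. Transcripts of both were thus also frequent in cells outside the high class.

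**Figure D5:**
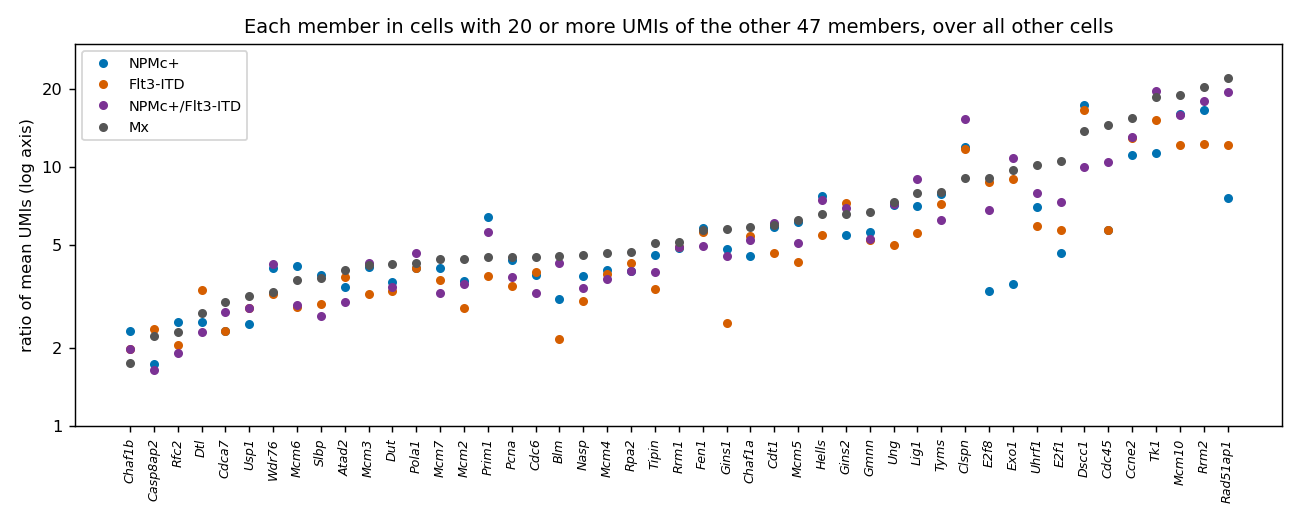
For each of the 47 genes at the floor, the ratio of its mean UMIs in cells with 20 or more UMIs of the other 47 genes to its mean in all other cells (log axis), ordered by the Mx value, 1 point per library. The lowest points are Casp8ap2 in NPMc+ (1.73) and the double mutant (1.65) and Chaf1b in Flt3-ITD (1.98) and Mx (1.74), and Rrm2 lies near the top, at 16.6 in NPMc+, 12.3 in Flt3-ITD, 18.0 in the double mutant and 20.4 in Mx.

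In the cells outside that high class, the median ratio to Mx over the 47 genes was 1.01 in NPMc+, 1.20 in Flt3-ITD and 1.21 in the double mutant, beside 0.967 (NPMc+), 0.930 (Flt3-ITD) and 1.11 (double mutant) for all genes at the floor. At least 1.5-fold higher there were 5 (NPMc+), 6 (Flt3-ITD) and 8 (double mutant) of the 47, beside 6.06% (NPMc+), 5.95% (Flt3-ITD) and 15.4% (double mutant) of all genes. At least 1.5-fold lower were 3 (NPMc+), 2 (Flt3-ITD) and 3 (double mutant), beside 12.7% (NPMc+), 11.9% (Flt3-ITD) and 12.8% (double mutant) of all genes. Within the high class the median ratio was 0.883 (NPMc+), 0.914 (Flt3-ITD) and 1.02 (double mutant). The entry rule partly sets the level in both classes. Mcm6 in the cells outside was at 132 CPM in NPMc+, 187 in Flt3-ITD and 216 in the double mutant, against 133 CPM in Mx, and in the high cells at 550.2 (NPMc+), 538 (Flt3-ITD) and 634 (double mutant) CPM, against 487 CPM in Mx. Rrm2 in the cells outside had ratios to Mx of 1.78 (1.21 to 2.65) in NPMc+, 2.49 (1.72 to 3.66) in Flt3-ITD and 1.78 (1.23 to 2.61) in the double mutant, and in the high cells it stood at 1.51 in Flt3-ITD and 1.57 in the double mutant. Pcna differed from Mx in both classes of the double mutant, at 0.876 (0.786 to 0.977) outside and 0.738 (0.630 to 0.866) in the high cells.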

How the data were processed

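The authors deposited 1 table of raw UMI counts per gene symbol and barcode for each library, which per the submitters' processing notes came from STARsolo in STAR 2.7.0c with the mm10 build. The annotation and the rule that picked the barcodes (11407 in all, the smallest with 101 UMIs) are not given in the sources used here. Here 10608 cells were kept, and their counts were summed per library and divided by the library total (CPM). Ratios carry exact Clopper-Pearson intervals of the share of 2 counts, and the same method gave the intervals of cell shares. UMIs of 1 gene count molecules captured, so the intervals cover counting error only. The precision follows from 62718 to 105805 UMIs of the set per library. No doublets were called, and cells over the 98th percentile of UMIs were left out as an alternative. Cells are not replicates, so no test was run.

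Cells with Uty, Kdm5d, Eif2s3y or Ddx3y UMIs but no Xist UMI were taken as male, and the reverse as female. Marker-bearing cells had at least 3 UMIs over T, B or erythroid markers. Python 3.11.15 (numpy 2.4.6, scipy 1.17.1, pandas 2.3.3) and R 4.3.3 with edgeR 4.0.16, for the TMM factors, were used, and the computation of ratios and thinning was checked on simulated data. The set, the gene lists and the alternatives were chosen with earlier results of these data known. Values in all libraries were given for 25 genes listed by name and for every gene past 1.5-fold against Mx. From each other list the 4 genes furthest from Mx were named, together with Mki67 and Top2a. Promoter windows came from RefSeq. Genes named for their split between cell classes were chosen after their values were seen.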

Additional observations from a re-analysis of the deposited data

Results flagged for a closer look

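The replication total of NPMc+ relative to Mx went in opposite directions in the sexes. Among male cells the ratio was 1.02 (1.005 to 1.04) and among female cells 0.885 (0.865 to 0.906), with intervals that cover counting error only. The male and female cells of each library came from an unknown number of mice, and the difference between the sexes was not tested. In Flt3-ITD the male and female ratios were 1.21 and 1.10, and in the double mutant 1.36 and 1.38, all above 1.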

How the results depend on the processing

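With TMM scaling the total ratio to Mx was 1.10 for NPMc+, 1.32 for Flt3-ITD and 1.29 for the double mutant, and the double mutant stood at 1.17 to NPMc+ and 0.976 to Flt3-ITD. Leaving mitochondrial and ribosomal protein genes out of the total gave 0.971 (NPMc+), 1.16 (Flt3-ITD), 1.14 (double mutant), 1.18 (double mutant to NPMc+) and 0.989 (double mutant to Flt3-ITD). Leaving out marker-bearing cells gave 0.925 (NPMc+), 1.29 (double mutant), 1.39 (to NPMc+) and 1.08 (to Flt3-ITD). Male cells alone gave 1.02 (NPMc+), 1.21 (Flt3-ITD), 1.36 (double mutant), 1.33 (double mutant to NPMc+) and 1.12 (double mutant to Flt3-ITD). Female cells gave 0.885 (NPMc+), 1.10 (Flt3-ITD), 1.38 (double mutant), 1.56 (double mutant to NPMc+) and 1.26 (double mutant to Flt3-ITD). The mean of per-cell CPM gave 0.979 (NPMc+), 1.24 (Flt3-ITD), 1.33 (double mutant), 1.36 (double mutant to NPMc+) and 1.08 (double mutant to Flt3-ITD). Without the deepest cells Flt3-ITD stood at 1.23 and the double mutant at 1.07 to Flt3-ITD. The cause of each reversal against Flt3-ITD was not tested.

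Genes at least 1.5-fold higher in NPMc+ numbered 0 in female cells, 0 at a floor of 20 CPM and 0 at a fold of 2, and those lower 1 with TMM scaling, 9 in female cells and 0 at a fold of 2. In Flt3-ITD those higher were 1 in female cells, 4 by per-cell means, 1 at a floor of 20 CPM and 0 at a fold of 2, and those lower 1 in male and 3 in female cells. In the double mutant those higher were 0 without mitochondrial and ribosomal protein genes, 3 without marker-bearing cells, 11 in male cells, 19 in female cells and 0 at a fold of 2. Those lower were 1 with TMM scaling, 3 without mitochondrial and ribosomal protein genes, 2 without marker-bearing cells, 2 in female cells and 1 by per-cell means.

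The mean per cell was 7.59 in NPMc+, 10.5 in the double mutant and 7.80 in Mx at 5000 UMIs (per 3000). It was 6.76 (NPMc+), 8.88 (Flt3-ITD) and 7.40 (Mx) without marker-bearing cells. Among male cells it was 7.13 in NPMc+, 10.2 in the double mutant and 7.22 in Mx, and among female cells 6.99 (NPMc+), 8.63 (Flt3-ITD), 9.59 (double mutant) and 8.15 (Mx). The Mki67 ratio at 5000 UMIs was 1.80 in NPMc+, 1.99 in Flt3-ITD and 2.31 in Mx. It was 1.46 (NPMc+) and 2.69 (Mx) in male and 1.85 (NPMc+) and 1.63 (Mx) in female cells. With Mki67 read at full depth it was 2.05 in NPMc+ and 2.20 in the double mutant, with Top2a in its place 1.96 in Flt3-ITD and 2.30 in Mx, and without marker-bearing cells 1.59 in the double mutant. A stricter cell filter and none at all moved no ratio beyond its interval. No paired analysis was possible because there is 1 library per genotype.

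Depth limits the rarest genes: Mcm10, Ccne1 and Ccne2 had intervals wider than most differences seen.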
